A study of Mus musculus with 56 samples.

Results

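Astrocytes of old mice without Trem2 were compared with astrocytes of old mice that carry it. The libraries were chosen by their labels alone, as the 7 old astrocyte libraries of Trem2 -/- mice (knockout, KO) and the 7 of Trem2 +/+ mice (wild-type, WT). They make 14 of the 56 libraries in the series. All 14 came from separate female mice. The label of each mouse gives 16 months, while the protocol text gives 16 to 18 months for the old mice. Each library held the viable ACSA-2-positive cells sorted from 1 whole brain after perfusion with PBS and enzymatic dissociation. ACSA-2 is an epitope on the product of Atp1b2, a subunit of the sodium pump that astrocytes carry on their surface. The other libraries of the series are Cd11b-positive microglia of the same old mice, and both cell types of young mice of 2 months, with 7 libraries in every group. The labels call the knockout homozygous. Nothing in the sources used here gives the targeted allele, the strain or the litters.

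Trem2 is a surface receptor of myeloid cells, microglia among them, and binds lipids and lipoproteins. It signals through the adaptor Tyrobp and is known for its part in the disease-associated state that microglia enter with age and amyloid. Astrocytes clear glutamate and potassium from the synapse, make most of the brain's Apoe-containing lipoproteins and supply cholesterol to neurons. With age and injury they raise reactive genes such as Gfap, Serpina3n and C4b. Comparing astrocytes of both genotypes asks whether the loss of a receptor of microglia is accompanied by a change in a neighbouring cell type.

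No gene differed between KO and WT astrocytes past the threshold, and for most genes the data bounded the effect. Of 7524 genes tested, 0 (0%) had an adjusted p under 0.05 with edgeR's quasi-likelihood test and Benjamini-Hochberg adjustment, and the smallest adjusted p was 0.672. At an unadjusted p under 0.05 there were 379 genes (5.04%), of which 186 (2.47%) were higher and 193 (2.57%) lower in KO. DESeq2 and limma-voom with quality weights also called 0 genes, with 361 and 448 genes at an unadjusted p under 0.05. With sets of consecutive animal numbers as a block, 0 genes were called and 524 of 7524 had an unadjusted p under 0.05. The median standard error was 0.238 with that block and 0.253 without it. The 14 old libraries fitted alone gave 0 called and 200 of 5917 at that unadjusted p, so this number depended on the fit. In no tested gene did every KO library lie above every WT library (0%) or below it (0%). The median log2 fold change, always given here as KO minus WT, was 0.01, and 50.9% of genes had a positive one.

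The bound on a gene is the 95% interval of its fold change from the same fit. For 2621 genes (34.8%) the whole interval lay within 1.5-fold of no change in either direction and for 6307 (83.8%) within 2-fold. With intervals widened so that all 7524 hold jointly (Bonferroni), 1093 genes (14.5%) stayed within 2-fold and 9 within 1.5-fold. The intervals of 1217 genes reached beyond a 2-fold change and those of 13 beyond a 4-fold change. Only 20 genes had an estimate beyond 2-fold, and the largest was 1.46 in size on the log2 scale.

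How tight a bound is depended on the number of counts. In the 3115 genes below 32 CPM (counts scaled for the depth of each library), 3.95% were bounded within 1.5-fold, against 68.6% of 1327 genes from 64 to 128 CPM and 87.3% of the 63 genes at 1024 CPM or more. The median half-width of the interval fell from 0.65 in the lowest class to 0.28 from 256 CPM on. In the lowest class 61.9% of the variance was counting error, and from 1024 CPM on it was 2.92%. For a gene that changed alone, the fold needed to pass the adjusted threshold had a median of 3.2 below 32 CPM and 1.65 from 256 to 1024 CPM.

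**Figure D1:**
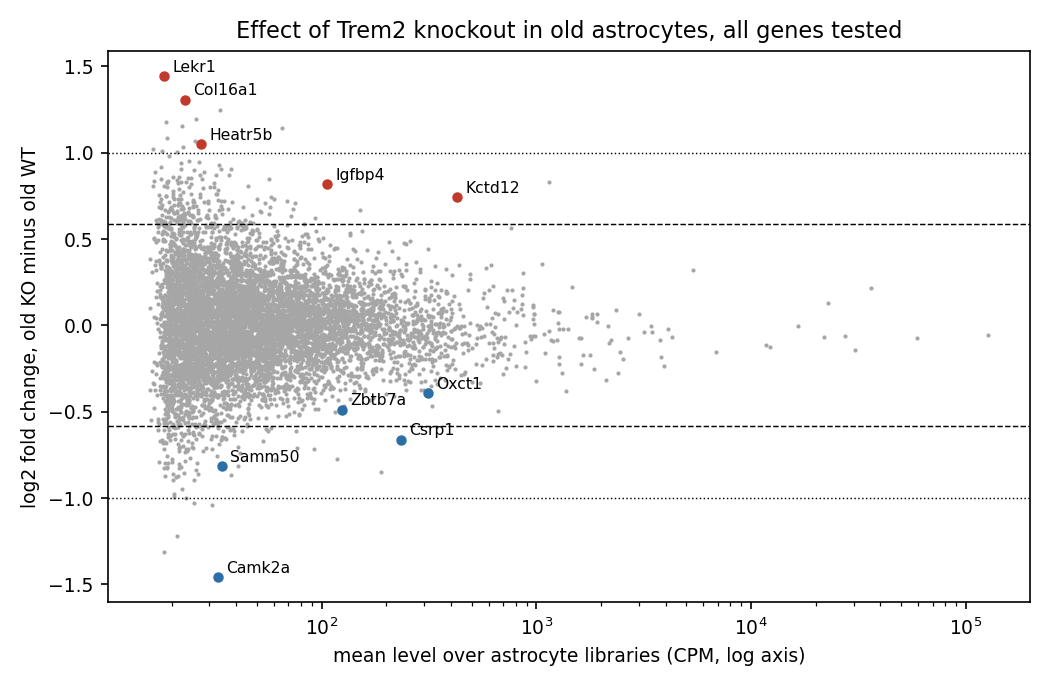
Log2 fold change (old KO minus old WT) of each of the 7524 genes tested against its mean level in CPM on a log axis. Dashed lines mark 1.5-fold and dotted lines 2-fold. Named are the 5 genes with the smallest p in each direction, none of which passed the adjusted threshold.

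**Figure D2:**
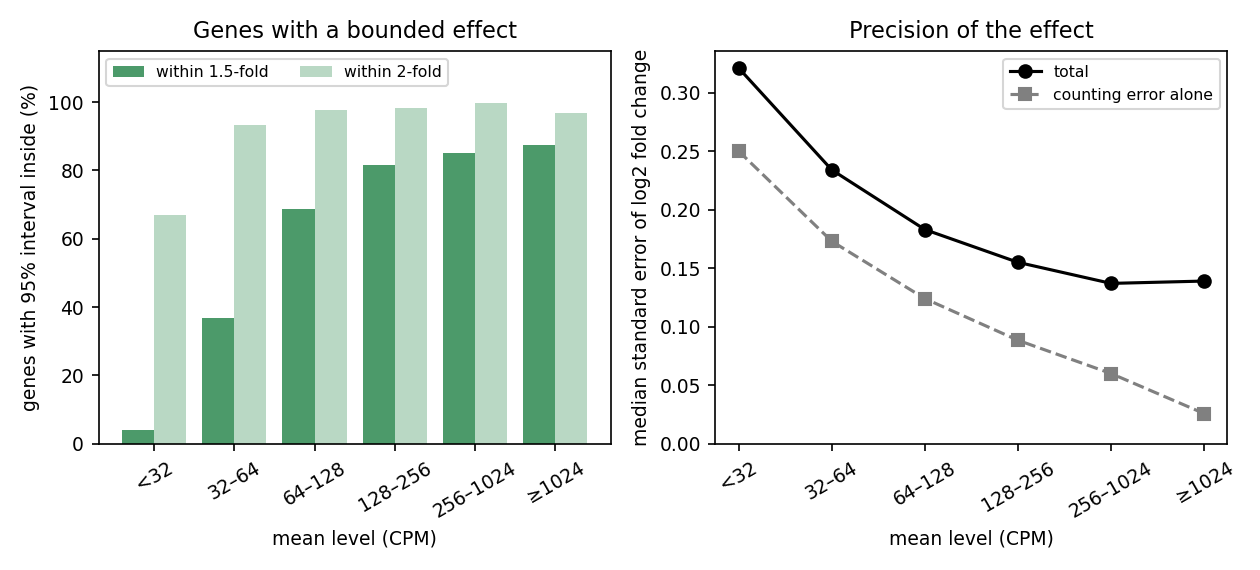
Left, the percentage of genes in each class of mean level (CPM) whose 95% interval lay within 1.5-fold or 2-fold, rising from 3.95% to 87.3% for 1.5-fold. Right, the median standard error of the log2 fold change and the part due to counting error alone, which separate as the level rises.

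The libraries held 241310 to 748246 counts, with a median of 585700 in KO and 454800 in WT (exact two-sided permutation p = 0.0711, adjusted p = 0.178 over 5 library measures). Genes detected had medians of 14720 and 14270 (exact permutation p = 0.0513). Shares of mitochondrial and mitochondrial ribosomal counts gave exact permutation p-values of 0.756 and 0.774. The RNA integrity number, which KO animal 28 lacks, gave 0.547 for 6 KO against 7 WT libraries by the same exact test. The counts of all 42 pairs of libraries within a genotype differed by more than counting error, with a chi-square of 1.92 to 11.7 per degree of freedom. The KO library of animal 12 and the WT library of animal 7 stood apart, with median correlations to the other libraries of 0.759 and 0.747, against 0.83 to 0.899 in the remaining 12. Animal 12 had the highest microglia marker sum of all, at 4680 CPM against 457 to 2390 CPM in the other 13. It also had the lowest Atp1b2, at 324 CPM, and animal 7 had the fewest counts. Without both libraries the number of called genes was again 0, with 2600 genes within 1.5-fold.

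Trem2 (ENSMUSG00000023992.14) was near the floor in astrocytes of both genotypes. The KO libraries read 0, 1.52, 3.87, 5.61, 9.14, 9.72 and 35.5 CPM, and the WT libraries 0, 2, 2.21, 3.78, 9, 10.6 and 12.4 CPM. The groups overlapped fully apart from animal 12. In the microglia of the same mice the gene ran from 68.1 to 154 CPM in KO and from 301 to 570 CPM in WT, without overlap, so the labels are borne out there and cannot be checked in astrocytes. Since only the 3′ end of a transcript is read and the deletion is unknown, counts that remain are no measure of protein.

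The sorted cells carried the genes that define astrocytes. The 26 genes of the astrocyte identity list summed to 29500 to 42200 CPM in KO, with a median of 37100, and to 34800 to 43700 CPM in WT, with a median of 41200. Every one of the 26 was tested and 0 were called. Their estimates leaned to one side, with 23 below zero and a median log2 fold change of −0.19 beside 0.01 for all tested genes. At an unadjusted p under 0.05, 3 were lower and 0 higher, and 19 were bounded within 1.5-fold. In bulk samples fewer cells of a type and less RNA per cell cannot be told apart. Without animal 12 the split was 19 below to 7 above zero (median −0.22), and without animals 12 and 7 together 21 to 5 (median −0.15). At an unadjusted p under 0.05 by edgeR's quasi-likelihood test, 7 were lower without animal 12, beside 251 of all 7657 genes tested. Without WT animal 27 it was 7, beside 255 of 7704, and without animals 12 and 7 together 2, beside 198 of 7616.

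Ndrg2, a cytoplasmic protein used as an astrocyte marker, had the smallest p of that list. It ran from 925 to 1530 CPM in KO (median 1350) and from 1140 to 2210 CPM in WT (median 1690), with a log2 fold change of −0.38 ± 0.13 (SE). The ranges overlapped, with 4 WT libraries above the highest KO library. Fgfr3, a fibroblast growth factor receptor, read −0.34 ± 0.13 and Mlc1, a membrane protein of astrocyte endfeet, −0.28 ± 0.13. None of these came near the adjusted threshold, each having an adjusted p of 0.973 by edgeR's quasi-likelihood test.

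Genes for transmitter and ion handling were among the best bounded lists, as were genes at high levels in general. Of all tested genes, 81.7% from 128 to 256 CPM, 85% from 256 to 1024 CPM and 87.3% from there on lay within 1.5-fold. Of the 21 members of this list, 17 lay within 1.5-fold and all 21 within 2-fold, with 19 estimates below zero and a median of −0.17. At an unadjusted p under 0.05, 1 was lower, the GABA transporter gene Slc6a11 at −0.28 ± 0.14. Slc1a2, the main glutamate transporter, ran from 4850 to 7760 CPM in KO (median 6560) and from 6670 to 8350 CPM in WT (median 6840). Its effect was −0.15 ± 0.11, with an interval from −0.37 to 0.07. Glul, which turns glutamate into glutamine, read −0.07 ± 0.14. The water channel gene Aqp4 read −0.22 ± 0.14. Gja1, a gap junction protein, was less tightly bounded, from −0.34 to 0.77, and Slc1a3, the second glial glutamate transporter, lay between −0.44 and 0.30.

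Reactive genes showed no shift that passed the test and were bounded less well, since they are low in these libraries. Of the 13 genes of the pan-reactive list 5 could be tested, with 0 called and 0 bounded within 1.5-fold. Gfap, the intermediate filament of reactive astrocytes, ran from 15 to 59.3 CPM in KO (median 36.7) and from 18.9 to 101 CPM in WT (median 37.9). Its log2 fold change was −0.32 ± 0.32, with an interval from −0.96 to 0.33. Vim, another filament protein, read 0.23 ± 0.18. Serpina3n, a secreted protease inhibitor, ran from 21.3 to 60.4 CPM in KO (median 40.6) and from 14.9 to 52.7 CPM in WT (median 23.9). Its effect of 0.56 ± 0.27 had an unadjusted p of 0.0433 and an adjusted p of 0.973 by edgeR's quasi-likelihood test.

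Several reactive genes were too low to test. The complement gene C4b ran from 9.67 to 17.8 CPM in KO and from 5.4 to 18 CPM in WT, and C3, the central complement component, from 0 to 7.1 and from 0 to 19.2 CPM. Lcn2, an iron-binding protein of acute inflammation, was at 0 in all but 1 library of each genotype. In the list of genes raised in inflammatory (A1) reactive astrocytes 3 of 13 members were tested and in the ischaemic (A2) list 2 of 12, with 0 called in either. Of the A2 genes Tm4sf1, a membrane protein, read 0.73 ± 0.34. At these levels a difference between genotypes was not detectable in most members. The disease-associated astrocyte list was better covered, with 15 of 18 tested, 0 called, 8 within 1.5-fold and a median of 0.05. Of its members Igfbp5, an insulin-like growth factor binding protein, read 0.47 ± 0.18, and the tetraspanin Cd9 0.39 ± 0.18.

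**Figure D3:**
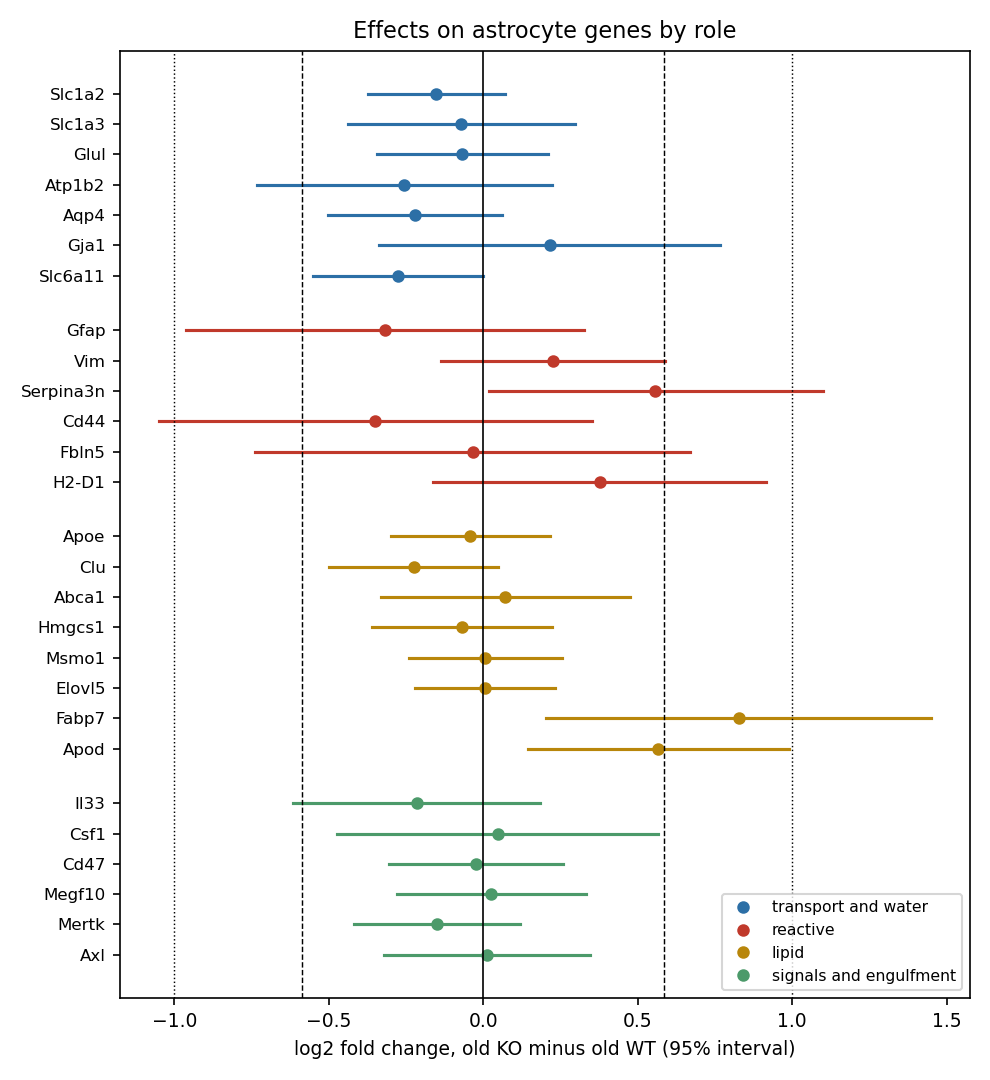
Log2 fold change (old KO minus old WT) with its 95% interval for astrocyte genes by role, with dashed lines at 1.5-fold and dotted lines at 2-fold. Transporters and lipid genes at high levels have intervals mostly inside 1.5-fold, whereas Gfap, Serpina3n and Cd44 reach beyond it.

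Lipid genes, which Trem2 is known to affect in microglia, did not differ past the threshold. Of 16 lipid transport genes tested 0 were called, 9 lay within 1.5-fold, and the median was 0.07. At an unadjusted p under 0.05, 3 were higher in KO and 0 lower, beside 186 and 193 of all 7524 genes. These 3 were Apod, Scarb1, a lipoprotein receptor that read 0.76 ± 0.29, and Lrp8, a receptor for Apoe and reelin that read 0.42 ± 0.19. Without KO animal 12, 2 members were higher and 1 lower at that p, and the median was −0.005. Without animals 12 and 7 together it was 2 higher and 0 lower (median −0.01). Scarb1 ran from 17.8 to 38.7 CPM in KO (median 30.8) and from 9.29 to 24.3 CPM in WT (median 16), with 5 KO libraries above every WT library. Apoe, the main lipoprotein of astrocytes, ran from 2740 to 4430 CPM in KO (median 3550) and from 3180 to 5100 CPM in WT (median 3350). Its effect was −0.04 ± 0.13, with an interval from −0.30 to 0.22. Clu, a second apolipoprotein, read −0.23 ± 0.13 and Abca1, which loads cholesterol onto lipoproteins, 0.07 ± 0.20.

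Cholesterol synthesis genes had a median near zero. Among 19 tested genes the median was −0.0014, 11 were bounded within 1.5-fold and 0 were called. Hmgcs1, which condenses the first building blocks of the pathway, ran from 180 to 368 CPM in KO (median 301) and from 197 to 393 CPM in WT (median 297), with overlapping groups. Its effect was −0.07 ± 0.14, and that of Msmo1, a sterol oxidase, was 0.01 ± 0.12. Dhcr7 and Hsd17b7, which act late in the pathway, read −0.60 ± 0.22 and −0.61 ± 0.23 at unadjusted p-values of 0.012 and 0.0124.

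Fatty acid genes gave 27 tested members, 0 called, 15 within 1.5-fold and a median of 0.01. The fatty acid binding protein Fabp7 had the largest estimate, 0.83 ± 0.31, with a wide spread in both groups. It ran from 355 to 2030 CPM in KO (median 1360) and from 356 to 1520 CPM in WT (median 592), so the ranges coincided at the low end. Apod, a small lipid carrier also made by oligodendrocytes, read 0.57 ± 0.21. Elovl5, a fatty acid elongase, read 0.01 ± 0.11. It was among the 5 most tightly bounded of the followed genes and list members, together with Tcf4, Lamp2, Cldn10 and Slc1a2.

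Genes by which astrocytes address microglia were likewise without a called member. Of 17 tested, 7 were bounded within 1.5-fold and the median was 0.05. Cd200, a ligand that restrains microglia, was the 1 member at an unadjusted p under 0.05. It ran from 9.47 to 36.7 CPM in KO (median 30.4) and from 0 to 26.5 CPM in WT (median 14), with 5 KO libraries above every WT library. Its effect was 0.87 ± 0.35, at an unadjusted p of 0.015 and an adjusted p of 0.973 by edgeR's quasi-likelihood test. Il33, an alarmin for microglia, ran from 59.2 to 134 CPM in KO (median 87) and from 71.8 to 160 CPM in WT (median 108), with an effect of −0.22 ± 0.20. Csf1, a growth factor for microglia, read 0.05 ± 0.26 and Cd47, a signal that restrains engulfment, −0.02 ± 0.14. The engulfment receptors Megf10 and Mertk read 0.03 ± 0.15 and −0.15 ± 0.13. Among 14 tested genes of phagocytosis 10 lay within 1.5-fold and 0 were called.

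The remaining pathways were bounded to differing degrees, with 0 called in each. Interferon-stimulated genes gave 14 tested members with a median of 0.01, of which 1 was bounded within 1.5-fold and 11 within 2-fold. Nuclear genes of the respiratory chain gave 34 members with a median of −0.07, and 20 lay within 1.5-fold. Of 18 glycolysis genes 10 lay within 1.5-fold (median −0.20), of 20 lysosomal genes 9 (median 0.02) and of 23 ribosomal protein genes 7 (median 0.02). Cox6c, a subunit of cytochrome oxidase, read −0.33 ± 0.13 and B2m, the light chain of MHC class I, 0.14 ± 0.15. Atp6ap1, an accessory subunit of the lysosomal proton pump, read −0.38 ± 0.18. Per2, a clock gene, read 0.72 ± 0.33, while the clock list as a whole had a median of −0.11 over 14 genes. The 14 tested genes of ER stress had a median of −0.0020, with the secreted factor Manf at 0.61 ± 0.28 and the transcription factor Atf5 at −0.67 ± 0.26. Regional astrocyte genes gave 16 tested members with a median of −0.15. Of these the glycine transporter gene Slc6a9 read −0.47 ± 0.18 and Crym, a thyroid hormone binding protein, 0.59 ± 0.28.

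Immediate early and heat shock genes, which dissociation of tissue also raises, gave 17 of 20 estimates above zero and a median of 0.20, with 0 called. This count depended on single libraries of both genotypes. Without KO animal 12, 8 of 20 were above zero and the median was −0.08. Without WT animal 27, 20 of 21 were above zero and the median was 0.37.

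Genes with the smallest p-values were not called and are given as a description, since they were picked by that p. Higher in KO were Col16a1, Lekr1, Kctd12, Igfbp4 and Heatr5b. Col16a1 (ENSMUSG00000040690.15), a minor fibril-associated collagen, ran from 16.7 to 41.5 CPM in KO (median 27.4) and from 3.78 to 21.7 CPM in WT (median 6.63). Of the KO libraries 5 lay above the highest WT library. Its log2 fold change was 1.31 ± 0.32 and its joint interval ran from −0.35 to 2.97. Lekr1 ran from 12.5 to 26.7 CPM in KO (median 21.3) and from 3.78 to 14.4 CPM in WT (median 6.63), with 6 KO libraries above every WT library. These genes rest on few reads, with 97 and 30 counts in KO and WT for Col16a1 and 72 and 20 for Lekr1.

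Kctd12, an auxiliary subunit of GABA-B receptors, was the best covered of them, from 395 to 694 CPM in KO (median 522) and from 129 to 508 CPM in WT (median 274). Its effect was 0.74 ± 0.19. Igfbp4, an insulin-like growth factor binding protein, read 0.82 ± 0.22 and Heatr5b 1.05 ± 0.30.

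Lower in KO were Csrp1, Zbtb7a, Oxct1, Samm50 and Camk2a. Csrp1, a LIM-domain protein of the actin cytoskeleton, ran from 137 to 283 CPM in KO (median 163) and from 230 to 383 CPM in WT (median 308), with 6 KO libraries below every WT library. Its effect was −0.66 ± 0.16, with an adjusted p of 0.672 by edgeR's quasi-likelihood test. Zbtb7a, a zinc-finger repressor, read −0.49 ± 0.13. Oxct1, which starts the use of ketone bodies as fuel, ran from 240 to 308 CPM in KO (median 275) and from 296 to 402 CPM in WT (median 367), and read −0.39 ± 0.11. Samm50, of the mitochondrial outer membrane sorting machinery, read −0.81 ± 0.24 and Camk2a, a kinase of excitatory neurons, −1.46 ± 0.46. All 10 genes overlapped between the groups.

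**Figure D4:**
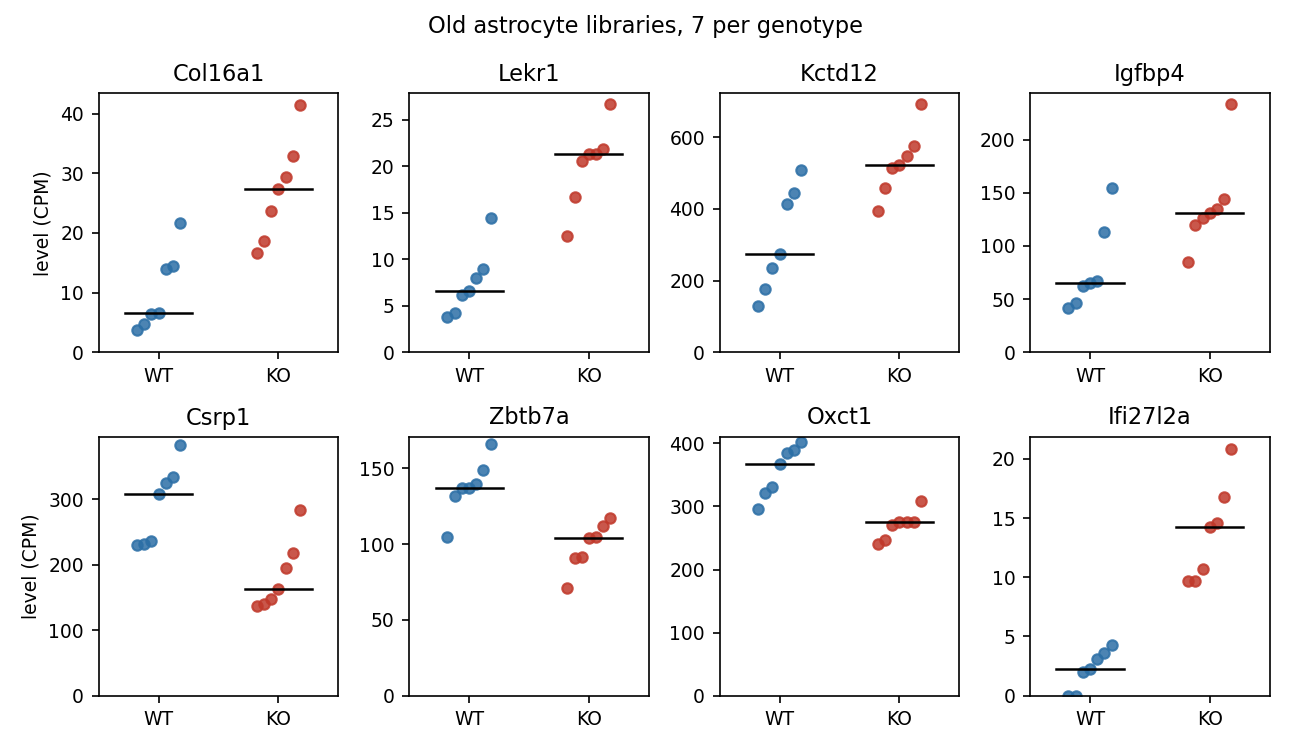
Level in CPM in each of the 7 WT and 7 KO old astrocyte libraries for 7 of the genes with the smallest p and for Ifi27l2a. The last was too low to be tested in the astrocyte fit and was picked after its values were seen. Points are libraries and lines are medians. The groups overlap in every panel but that of Ifi27l2a, where KO runs from 9.67 to 20.8 CPM and WT from 0 to 4.25 CPM.

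Markers of other cell types were present in both genotypes, with overlapping levels. The 14 oligodendrocyte markers, all detected, summed to 1930 to 13400 CPM in KO and 2260 to 12400 CPM in WT. Of 16 microglia markers 15 are in the table and all 15 were detected, at 550 to 4680 CPM in KO (median 812) and 457 to 2390 CPM in WT (median 1060). Of 12 tested, 11 estimates were above zero (median 0.27). Without KO animal 12 it was 0 of 12 (median −0.45) and without WT animal 27 it was 13 of 13 (median 0.60). The sign and size of these estimates thus depended on single libraries. Neuron markers summed to 356 to 695 CPM in KO and 395 to 824 CPM in WT, with 9 of 10 tested estimates below zero. Camk2a and Nefl, a neurofilament gene that read −0.82 ± 0.38, are genes of neurons, and the part of neuronal RNA in their values was not tested. Endothelial markers summed to 61.1 to 187 CPM in KO (median 96.7) and 37.2 to 170 CPM in WT (median 59.9), and mural markers to 85.2 to 211 CPM (median 168) and 83.2 to 181 CPM (median 112). The KO minus WT difference of the mean log2 sums was 0.50 for endothelial and 0.42 for mural markers, the largest of the marker lists with a value in every library. Of the mural markers 3 could be tested and all 3 estimates were above zero, and of the endothelial markers 1, below zero. KO animal 8 had the highest endothelial and mural sums and the highest Igfbp4, and the part of vascular RNA in the values of that gene was not tested. Neutrophil markers summed to at most 49.7 CPM and lymphocyte and red cell markers to at most 24.8 CPM. Across the 14 marker lists 0 genes were called.

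The comparison with young astrocytes asks whether the KO effect depends on age, and no gene passed that test. Of 7524 genes 0 (0%) had an adjusted p under 0.05 for the old minus young KO effect, with a smallest adjusted p of 0.551 by edgeR's quasi-likelihood test and 302 genes (4.01%) at an unadjusted p under 0.05. DESeq2 called 0 and limma-voom 1, with 290 and 442 genes at an unadjusted p under 0.05. Across genes the KO effects at both ages, which share no library, had a Pearson correlation of 0.06 (n = 7524 genes, which are not independent replicates). Of the 100 genes with the smallest p in old astrocytes, 52 had the same sign in young ones, beside 51.6% of all genes.

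Igfbp4 had the smallest p of that comparison. In old astrocytes it ran from 85.2 to 234 CPM in KO (median 131) and from 41.6 to 155 CPM in WT (median 64.8), and in young ones from 54.8 to 99.8 in KO and from 91.3 to 147 in WT. The effect was 0.82 ± 0.22 in old and −0.54 in young mice, and their difference 1.36 ± 0.30 had an unadjusted p of 7.32e-05. Limma-voom, the fit without a filter on low counts, the fit with sets of 4 consecutive animal numbers as a block and the fit without WT animal 3 did call it. Col16a1 read −0.38 in young astrocytes, Csrp1 0.11, Kctd12 −0.17 and Oxct1 0.09.

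The KO effect differed between astrocytes and microglia of the same 14 old mice in 4 of 8286 genes (0.0483%), which were Spp1, Ifi27l2a, Axl and Lpl. Of these Axl alone would have passed the filter on low counts by its astrocyte libraries. Ifi27l2a entered the test through microglia of both genotypes, and Spp1 and Lpl through WT microglia. At an unadjusted p under 0.05 there were 323 genes (3.9%). Axl, a receptor that bridges to dying cells, is the one that old astrocytes express well. It ran from 83.6 to 134 CPM in KO (median 90.1) and from 73.6 to 152 CPM in WT astrocytes (median 97), and from 34.2 to 58.6 CPM in KO and 82.6 to 135 CPM in WT microglia. The genotypes overlapped in astrocytes and were apart in microglia. The effect was 0.01 ± 0.17 in astrocytes and −1.25 ± 0.17 in microglia, and the difference of 1.26 ± 0.24 had an adjusted p of 0.0125 by edgeR's quasi-likelihood test.

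Spp1, a secreted phosphoprotein, and Lpl, a lipase, are genes of the Trem2-dependent microglial state. In microglia the mean of Spp1 was 285 ± 101 CPM for WT against 10.1 ± 5.28 CPM for KO (SD, n = 7), and in astrocytes it read 4.66 ± 5.29 CPM in KO and 4.09 ± 3.02 CPM in WT. The microglial mean of Lpl was 384 ± 70.7 CPM for WT against 39.7 ± 17.8 CPM for KO, and astrocytes held 5.71 ± 4.04 CPM in KO and 7.7 ± 9.57 CPM in WT. The astrocyte effects were 0.12 ± 0.68 and −0.07 ± 0.60, so neither was tightly bounded. The differences were 4.84 ± 0.75 for Spp1 and 3.16 ± 0.64 for Lpl, with adjusted p-values of 0.00186 and 0.041 by edgeR's quasi-likelihood test. Both genes fell below the filter of the astrocyte fit. Since the WT microglia, with the high level, carried them past the filter, their calls are a description of microglia and support nothing about astrocytes. Lpl was called in 3 of the 14 fits that left out 1 astrocyte library (KO animals 8 and 16 and WT animal 15), and the other 3 genes in all 14. Of the 19 genes listed as dependent on Trem2 in microglia 9 were tested in astrocytes, with 0 called and 5 within 1.5-fold, and Igf1, an insulin-like growth factor, read 0.72 ± 0.26. Cst7, another gene of that state, had 0 counts in all 14 old astrocyte libraries. Clec7a read 1.52 to 7.1 CPM in KO and 0 to 2.21 CPM in WT astrocytes, on 11 and 2 counts.

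Ifi27l2a, an interferon-inducible gene, had its larger estimate in astrocytes, and it was singled out after its values were seen. It lies on chromosome 12 from 103442167 to 103443680 on the minus strand (GRCm38). The KO astrocyte libraries read 9.67, 9.72, 10.7, 14.2, 14.6, 16.8 and 20.8 CPM, and the WT libraries 0, 0, 2, 2.21, 3.1, 3.6 and 4.25 CPM. The genotypes did not overlap, on 49 counts in KO and 7 in WT. Of the 7524 genes tested in the astrocyte fit, which leave Ifi27l2a out, 0 lay so apart. The share among genes below that filter was not counted, so the separation is a description. In microglia of the same mice it ran from 33 to 62.8 CPM in KO and from 45 to 89.9 CPM in WT, which overlap. The effect was 2.41 ± 0.53 in astrocytes and −0.36 ± 0.19 in microglia, and the difference 2.76 ± 0.56 had an adjusted p of 0.00728 by edgeR's quasi-likelihood test. No astrocyte library reached the 18.7 CPM that the filter of this fit required on unscaled counts, and all 14 microglia libraries did. Since microglia carried the gene into this test, its call alone does not support an effect in astrocytes.

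In the astrocyte fit itself Ifi27l2a fell below the filter on low counts. With no filter its effect was 2.45 ± 0.71 with an adjusted p of 0.177 by edgeR's quasi-likelihood test. Young astrocytes did not show it, with a mean of 5.39 ± 2.88 CPM in KO and 5.08 ± 3.41 CPM in WT (SD, n = 7). Of the other interferon-inducible genes Ifi27 read −0.17 ± 0.19, Ifitm3 0.07 ± 0.28, Isg15 −0.06 ± 0.31 and Rsad2 −0.03 ± 0.33. Animal 12, the library with the most microglia marker counts, read 14.2 CPM for Ifi27l2a, which is the median of the KO libraries. The part of microglial RNA in the values of Ifi27l2a was not tested.

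**Figure D5:**
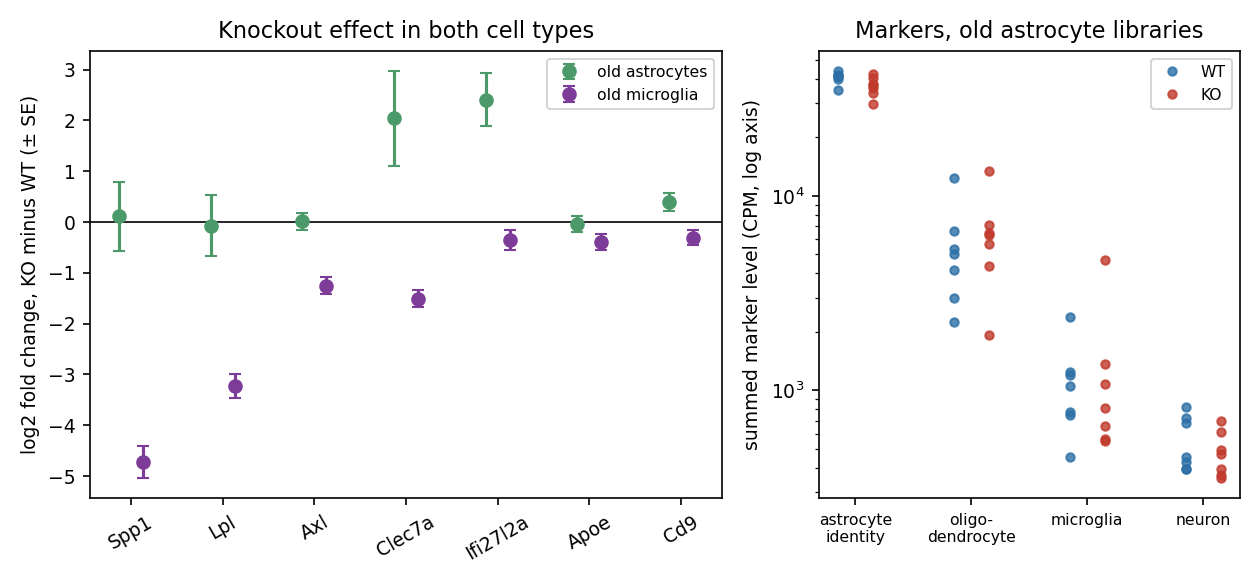
Left, log2 fold change (KO minus WT, ± SE) of 7 genes in old astrocytes and in microglia of the same mice. Spp1, Lpl and Axl lie near zero in astrocytes and below it in microglia, and Ifi27l2a lies above zero in astrocytes. Right, summed level (CPM, log axis) of 4 marker lists in each old astrocyte library, where the genotypes overlap in every list and 1 KO library stands apart for microglia markers.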

How the data were processed

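The 14 old astrocyte libraries, 7 per genotype, were analysed beside the 14 young astrocyte and 14 old microglia libraries. Libraries were made with a 3′ tag kit with unique molecular identifiers (UMI), per the labels' protocols. The authors deposited raw counts, 1 whole number per Ensembl gene and library, without normalization. FastQC 0.11.5, STAR, MultiQC and R 3.4.3 with build GRCm38.p6 are named in the submitters' processing notes. No source used here gives the counting program, the annotation or whether UMIs were collapsed, so counts may not be molecules. Counts are not corrected for gene length. GENCODE M21 gave positions for 53620 of 53801 identifiers.

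All 28 astrocyte libraries were fitted with 1 mean per group in edgeR 4.0.16 (R 4.3.3), with TMM scaling, filterByExpr (minimum count 10) and the quasi-likelihood F-test. Calls required a Benjamini-Hochberg adjusted p under 0.05. The 7524 genes kept hold 95.7% of the old astrocyte counts. Log2 fold changes are unshrunk, with standard errors from the fit and 95% intervals from its t quantiles. CPM are on TMM-scaled library sizes, and values set beside microglia come from the fit of the 28 old libraries of both cell types. The fits were tested on simulated data. A few members of the lists are not reported here by name. Exact two-sided permutation tests compared library measures, 7 against 7 (3432 regroupings, smallest possible p 5.83e-04), except the RNA integrity number with 6 against 7 (1716 regroupings, smallest possible p 0.00117).

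Both cell types came from the same mice. With group means removed, the astrocyte and microglia libraries of 1 mouse correlated at a median of 0.116 and those of different mice at −0.00136. For 9 of 14 mice it was above 0.1, so the pairing rests on the labels. Alternatives were RLE scaling, no and stricter filters, DESeq2 1.42.0, limma-voom (limma 3.58.1), the 14 old libraries alone, covariates, and each library left out. A further alternative took sets of consecutive animal numbers as a block. The fits without animals 12 and 7 together were chosen after seeing the data. The members and the 39 gene lists, as well as the tests, were chosen with earlier results of these data known. Named genes are the 5 with the smallest p in each direction, genes followed whatever their p, and up to 4 high members of each list. The 5 followed genes or list members with the narrowest intervals are named as well. Also named are list members at an unadjusted p under 0.05, genes called in an alternative and Ifi27l2a, which were chosen after their values were seen.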

Additional observations from a re-analysis of the deposited data

Results flagged for a closer look

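Single libraries lay far from the others of their genotype for some measures. Of 114 groups examined, 16 had such a library. Some levels are near zero and the groups share the same libraries, so no chance rate is set beside this count. The KO library of animal 12 was the highest for microglia markers (4680 CPM, next 1360), border macrophage markers (189 CPM, next 101), neutrophil markers (49.7 CPM, next 16.7), Trem2 (35.5 CPM) and Clec7a (7.1 CPM), and the lowest for Glul (2290 CPM, next 4170). The WT library of animal 27 was the highest for microglia markers (2390 CPM), border macrophage markers (155 CPM) and oligodendrocyte markers (12400 CPM), and the lowest for fibroblast markers (77.4 CPM). KO animal 8 was the highest for endothelial markers (187 CPM) and Igfbp4 (234 CPM). WT animal 7 was the highest for C3 (19.2 CPM) and was the 1 WT library with Lcn2 (4.79 CPM), KO animal 4 the 1 KO library with it (1.87 CPM), and WT animal 15 the highest for Lpl (26.5 CPM).

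The KO effect differed between old astrocytes and microglia by a test of the difference itself in 4 genes. The astrocyte minus microglia difference on the log2 scale was 4.84 for Spp1, 3.16 for Lpl, 2.76 for Ifi27l2a and 1.26 for Axl. Axl alone would have passed the filter on low counts by its astrocyte libraries. Spp1, Lpl and Ifi27l2a entered the test through microglia, so their calls alone support nothing about astrocytes.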

How the results depend on the processing

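The count of called genes in old astrocytes was 0 in all alternatives but one. Without a filter on low counts 23907 genes were fitted and 6 called, Fabp7, mt-Nd3, Kctd12 and Igfbp4 higher and Kif5a and Camk2a lower, with 1114 at an unadjusted p under 0.05. The cause was not tested. Genes bounded within 1.5-fold and 2-fold stayed within 1.5 times the values given under all alternatives, from 2172 to 2530 and from 5899 to 6331 with each library left out. For the old minus young effect, 1 gene was called by limma-voom, 1 with the numbering set as a block, 2 without a filter and 0 to 1 with each old library left out (young ones were not), Igfbp4 in every case and Apod in the unfiltered fit. For astrocytes minus microglia, the stricter filter kept 3821 genes and called 1, Axl. DESeq2 and the unfiltered fit called 5, adding Trem2, and limma-voom 5, adding Clec7a. With each astrocyte library left out (microglia ones were not) 3 to 4 were called, Tfpi among them without WT animal 3. The paired fit with the animal as replicate block called 4, the same 4 genes. Without both libraries of animals 12 and 7 it was 3.

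Of 152 named genes under 25 alternatives, 10 genes changed sign by over 1 SE with a library left out, and none was called there. Their ranges with each library left out were −0.13 to 0.43 for Ier5, −0.31 to 0.37 for Btg2 and −0.21 to 0.11 for Ctsd. They were −0.53 to 0.53 for Ctss, −0.44 to 0.70 for Cx3cr1, −0.27 to 0.60 for P2ry12 and −0.22 to 0.62 for C1qc, all 7 lowest without KO animal 12. For Ttr the range was −0.65 to 0.19 (highest without WT animal 11), for Snap25 −0.093 to 0.32 and for Dcn −0.18 to 0.67 (both lowest without KO animal 24). Without animals 12 and 7 together B2m read −0.021, Ier5 −0.20, Btg2 −0.32, Ctss −0.61, Cx3cr1 −0.48, P2ry12 −0.33 and C1qc −0.29. With limma-voom Ier5 read −0.10, Btg2 −0.22, Ctss −0.41, Cx3cr1 −0.29, P2ry12 −0.21 and C1qc −0.18. Of 12 marker lists with a value in every library, 12 moved by less than 1 SD when mean log2 levels replaced log2 sums, and 2 changed sign, border macrophage markers from −0.063 to 0.082 and OPC markers from −0.037 to 0.061. Depth limits the 3115 genes below 32 CPM.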

Other observations

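Within 10 megabases on each side of Trem2 on chromosome 17, 58 genes were tested, 5 of them (8.62%) at an unadjusted p under 0.05, and 0 were called. Within 5 megabases it was 2 of 29 (6.9%) and within 20 megabases 10 of 152 (6.58%), beside 5.04% of all tested genes. With so few genes no enrichment is read from these shares. On the whole chromosome it was 20 of 313 (6.39%), with the smallest p in Heatr5b.

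The spread of log2 CPM between libraries was somewhat larger in WT. The median SD of log2 CPM over tested genes was 0.438 in KO and 0.490 in WT, and 0.368 and 0.439 without animals 12 and 7. This SD includes counting error, and the WT libraries had fewer counts (median 454800 against 585700 in KO). Spread between mice and depth cannot be told apart here, and the difference in spread was not tested.

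Fabp7, mt-Nd3 and Kif5a were called when no filter on low counts was used and not in the filtered fit. In KO mt-Nd3, a mitochondrial gene, ran from 0 to 205 CPM and in WT from 0 to 110 CPM, with medians of 99.1 and 7.57. In both genotypes it read 23.4 CPM or more in every library from animal 19 on. In lower animal numbers it read at most 7.57 CPM, except in KO animal 4 (99.1 CPM). The first principal component of log2 CPM over the tested genes, with 32.8% of the variance in the old astrocyte libraries, split at the same animals. It ran from −24.2 to −15.8 in the libraries from animal 19 on. In lower animal numbers it ran from −14.7 (KO animal 4) to 68.1 (WT animal 7). The relation to the numbering was not tested, for mt-Nd3 or for this component. Kif5a, a kinesin of neurons, ran from 59.2 to 315 CPM in KO and from 169 to 390 CPM in WT. The levels of mt-Nd3 and Kif5a overlap between the genotypes.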
